A study of Mus musculus with 17 samples.

Results

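The CXC chemokine ligands Cxcl1, Cxcl2, Cxcl3, Cxcl5, Cxcl9, Cxcl10 and Cxcl16 were examined in cultured peritoneal macrophages (PMs) exposed to the HIV protein Tat. Members were taken as the rows of the expression table whose symbol equals a listed one, and 7 of the 8 symbols had a row among 21683 rows. Cxcl11 is not analysed here; it lies beside Cxcl10 (GRCm38, chr5:92359544-92365485, minus strand) and is annotated as a polymorphic pseudogene in GENCODE M21. All 7 genes passed the filter on low values, which kept 10451 genes.

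RNA-Seq was performed on 17 libraries of PMs from 8-week-old C57BL/6 mice that had received 1 mL of 3% thioglycollate 3 days earlier according to the sample labels (the study's methods give a different day). All mice, controls included, carried loxP-flanked IKKβ alleles (IKKβ F/F). Cells attached for 4 h and were then given PBS or 100 nM Tat for 12 h. The groups were IKKβ F/F PMs with PBS (F/F PBS, n = 6 libraries, here control PMs), the same genotype with Tat (F/F Tat, n = 6, here Tat PMs) and IKKβ ΔMye PMs with Tat (ΔMye Tat, n = 5, here ΔMye PMs). The ΔMye mice carry a heterozygous Cre knock-in at LysM (Lyz2), which is active in macrophages and neutrophils and deletes IKKβ there. The Tat was recombinant, made in bacteria and then cleared of endotoxin, according to the study's methods, and the Tat libraries were compared with PBS. The labels do not tie libraries to separate mice, whereas the study's figure legends call the libraries of a group biological replicates of mice. The p-values measure the spread between these libraries. IKKβ ΔMye cells given PBS are not analysed here, so a difference between genotypes that existed before Tat cannot be told apart from a difference in the response to Tat.

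CXC chemokines are small secreted proteins that direct leukocytes along gradients by binding G protein-coupled receptors. Cxcl1, Cxcl2, Cxcl3 and Cxcl5 carry a glutamate-leucine-arginine motif before the CXC cysteines, bind Cxcr2 and recruit neutrophils, and macrophages make them within hours of an inflammatory signal, largely through NF-κB. Cxcl9, Cxcl10 and Cxcl11 lack that motif, bind Cxcr3 on activated T and NK cells and are induced by interferons, with NF-κB acting alongside STAT and IRF factors at their promoters. Cxcl16 is made as a membrane protein with a chemokine domain, is shed by Adam10 and Adam17, binds Cxcr6 and also takes up oxidized lipoprotein. IKKβ is the kinase that releases canonical NF-κB from its inhibitors.

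The neutrophil-attracting genes lie in one stretch of chromosome 5, all on the plus strand (GRCm38, GENCODE M21): Cxcl5 at chr5:90759360-90761624, Cxcl3 at chr5:90786103-90789600, Cxcl1 at chr5:90891241-90893115 and Cxcl2 at chr5:90903871-90905938. Cxcl9 (chr5:92321347-92328079) and Cxcl10 (chr5:92346638-92348889) lie farther along the same chromosome on the minus strand, 18.6 kb apart. Cxcl16 is on chromosome 11 (chr11:70453983-70459984, minus strand). All 7 are annotated as protein coding.

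Promoter sequences from RefSeq (GRCm38.p6) were found for 5 of the 7 genes, Cxcl1, Cxcl2, Cxcl3, Cxcl9 and Cxcl10. They are shown because these neighbouring genes differed in their response to Tat and in ΔMye PMs. Each is the stretch of up to 250 bases before the RefSeq transcript start, cut at the first base that GENCODE M21 places in a transcript, 5′ to 3′ on the gene's own strand. Capitals mark matches on either strand to a κB-like motif (GGG, then 2 or 3 bases of any kind, then TTCC) or to an interferon-stimulated response element (ISRE)-like motif (GAAA, 2 bases of any kind, GAAA). The stretches are chr5:90890995-90891240 for Cxcl1, chr5:90903649-90903870 for Cxcl2, chr5:90785851-90786100 for Cxcl3, chr5:92328080-92328329 for Cxcl9 and chr5:92348890-92349139 for Cxcl10.
Cxcl1: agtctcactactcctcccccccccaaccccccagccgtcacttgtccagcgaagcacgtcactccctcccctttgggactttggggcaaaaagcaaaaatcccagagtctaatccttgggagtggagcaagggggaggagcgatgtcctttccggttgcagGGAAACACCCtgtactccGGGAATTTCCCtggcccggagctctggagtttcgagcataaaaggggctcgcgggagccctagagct
Cxcl2: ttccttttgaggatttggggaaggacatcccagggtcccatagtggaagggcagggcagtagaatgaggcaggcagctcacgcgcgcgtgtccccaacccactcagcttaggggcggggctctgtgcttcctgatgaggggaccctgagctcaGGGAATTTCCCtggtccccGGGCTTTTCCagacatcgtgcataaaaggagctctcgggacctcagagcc
Cxcl3: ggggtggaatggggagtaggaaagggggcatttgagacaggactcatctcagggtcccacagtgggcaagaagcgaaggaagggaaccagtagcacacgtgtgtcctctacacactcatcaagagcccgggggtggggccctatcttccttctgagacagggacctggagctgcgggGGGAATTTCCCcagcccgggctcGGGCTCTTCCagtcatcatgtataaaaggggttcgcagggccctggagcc
Cxcl9: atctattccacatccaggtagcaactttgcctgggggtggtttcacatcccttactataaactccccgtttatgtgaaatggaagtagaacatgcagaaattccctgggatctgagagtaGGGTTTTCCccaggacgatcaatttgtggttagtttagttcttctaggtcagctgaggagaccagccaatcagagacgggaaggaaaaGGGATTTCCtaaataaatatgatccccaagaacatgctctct
Cxcl10: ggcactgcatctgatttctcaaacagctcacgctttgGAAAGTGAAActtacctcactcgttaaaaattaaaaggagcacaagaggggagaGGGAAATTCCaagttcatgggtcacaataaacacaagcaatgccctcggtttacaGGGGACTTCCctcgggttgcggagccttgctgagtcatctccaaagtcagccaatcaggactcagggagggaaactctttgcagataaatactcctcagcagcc

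All 5 promoters held κB-like matches, 2 separate ones each once overlapping matches were merged, and 8.26% of all 32851 RefSeq mouse promoter windows of 250 bases held at least 1. The ISRE-like motif was found in Cxcl10 alone of the 5, 213 to 204 bases before the start, and in 2.98% of all windows. Cxcl1, Cxcl2 and Cxcl3 shared the 11-base run gggaatttccc, which reads as a κB-like match on both strands. It ended 61, 87 and 63 bases before their RefSeq starts. Of the bases before those starts, the cut left 4, 28 and 0 out of the printed Cxcl1, Cxcl2 and Cxcl3 stretches. Distances to the end of a printed stretch are therefore shorter for Cxcl1 and Cxcl2. That run, singled out after the sequences had been read, was present in 14 of the 32851 windows (0.0426%). The Cxcl9 matches were both of the 9-base form, at 130 to 122 and 42 to 34 bases before the start, and those of Cxcl10 were at 159 to 150 and 104 to 95 bases. The letters TATAAA occurred 30 bases before the start of Cxcl3 and 195 bases before that of Cxcl9, and in 12.4% of all windows. A match is a description of the letters and was not tested as a binding site.

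**Figure D1:**
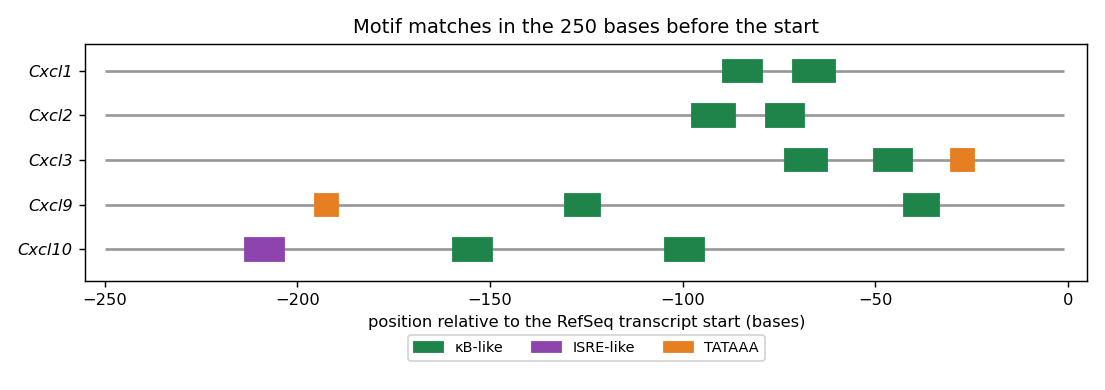
Positions of motif matches in the 250 bases before the RefSeq transcript start of 5 CXC ligand genes. The x axis is the distance from the start in bases, green boxes are κB-like matches, the purple box is the ISRE-like match and orange boxes are TATAAA. Each gene has 2 κB-like boxes, and the ISRE-like box appears in the Cxcl10 row, 213 to 204 bases before the start.

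To determine how Tat affected these ligands in macrophages with intact IKKβ, Tat PMs were compared with control PMs. All 7 ligands were higher in every Tat library than in every control library. Cxcl10 rose most, by 251-fold on the log2(TPM + 0.1) scale, followed by Cxcl2 (53.7-fold) and Cxcl1 (47.3-fold), and then by Cxcl3 (18-fold) and Cxcl9 (17.4-fold). Cxcl16 (2.86-fold) and Cxcl5 (2.81-fold) rose least. With the 2 thresholds used here, an adjusted p under 0.01 (Benjamini-Hochberg over the 10451 genes, limma) and a change over 3-fold, 5 of the 7 were called higher, where 5.21% of all tested genes were. By the adjusted p alone all 7 rose, against 17% of tested genes, and for 15.3% of tested genes the Tat libraries lay wholly above the control libraries. The values are TPM, each gene's share of all transcripts after correction for transcript length, and the median tested gene was lower with Tat by 0.65 on the log2 scale. Values after median-ratio scaling, which brings that median to -0.03, are therefore given as well; 7 of 7 ligands were then called, against 8.51% of tested genes. Fewer cells of a type and less RNA per cell cannot be told apart in these bulk samples.

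**Figure D2:**
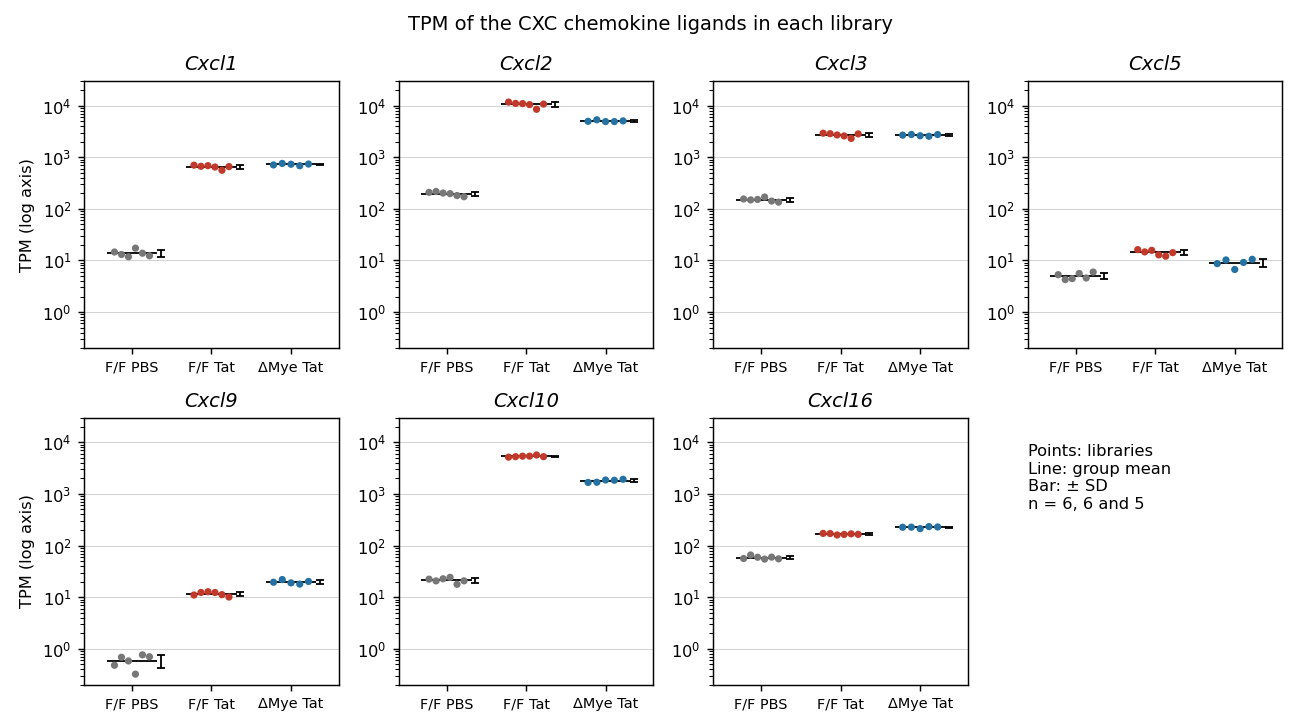
TPM of each CXC ligand in every library, on a log axis shared by all panels. Points are libraries (F/F PBS and F/F Tat n = 6, ΔMye Tat n = 5), the line is the group mean and the bar the SD. Cxcl2 reached 10575 TPM on average in F/F Tat, while Cxcl5 and Cxcl9 stayed at 14.3 and 11.6 TPM.

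Among the neutrophil-attracting ligands, Cxcl2, the major macrophage-derived one, was 172 to 217 TPM in control PMs (median 199.6) and 8497 to 11729 TPM in Tat PMs (median 10843). The log2 difference was 5.75 (standard error (SE) 0.06, adjusted p = 1.59e-23, limma) and 6.38 after scaling. Its mean of 10575 ± 1101 TPM (SD, n = 6) ranked 6 among all genes in Tat PMs, from rank 619 in control PMs. Cxcl1, which acts on the same receptor, was 11.8 to 17.3 TPM in control PMs (median 13.4) and 559.4 to 702.6 TPM in Tat PMs (median 663.3), a log2 difference of 5.56 (SE 0.07, adjusted p = 1.82e-22, limma).

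Cxcl3 lies 102 kb from Cxcl1 and acts on the same receptor. It was 135 to 169 TPM in control PMs (median 150) and 2317 to 2926 TPM in Tat PMs (median 2770). It differed by 4.17 on the log2 scale (SE 0.05, adjusted p = 1.74e-22, limma). Cxcl5 started low, at 4.26 to 5.96 TPM (median 4.94), and reached 12.1 to 16.2 TPM (median 14.4), a log2 difference of 1.49 (SE 0.11, adjusted p = 1.79e-10, limma). Its 95% interval, 1.26 to 1.73, held the 3-fold threshold of 1.58, and after scaling the difference was 2.11. In fold the order of the class was therefore Cxcl2, Cxcl1, Cxcl3 and Cxcl5, and none of the 4 overlapped between control PMs and Tat PMs.

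Among the interferon-inducible ligands, Cxcl10 was 17.8 to 24.2 TPM in control PMs (median 21.5) and 5165 to 5687 TPM in Tat PMs (median 5338). The log2 difference was 7.97 (SE 0.06, adjusted p = 2.07e-26, limma), and its rank among all genes moved from 4228 to 19. Cxcl9, which is best known as a target of interferon-γ, stayed far below it. It was 0.322 to 0.762 TPM in control PMs (median 0.632) and 10.1 to 12.7 TPM in Tat PMs (median 11.7), a log2 difference of 4.12 (SE 0.14, adjusted p = 4.33e-16, limma). Since its control values were under 1 TPM, this size depends on the pseudocount, and it was 2.99 with a pseudocount of 1 TPM. Neither gene's groups overlapped, and the lowest Tat library of Cxcl10 lay far above the highest of Cxcl9.

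Cxcl16, the membrane-bound ligand, was 54.6 to 65.6 TPM in control PMs (median 57.7) and 160 to 172 TPM in Tat PMs (median 167). Its log2 difference was 1.51 (SE 0.04, adjusted p = 1.00e-17, limma), and its interval of 1.43 to 1.60 also held the 3-fold threshold. Of its 31-base sequences, 18.5% also occur in Zmynd15, an overlapping gene that was 6.62 to 8.60 TPM in control PMs and 25.1 to 28.1 TPM in Tat PMs. Reads from such sequences cannot be assigned to either gene with certainty. The same share was 7.59% for Cxcl2 and 5.46% for Cxcl3, mostly between the 2 of them, 4.47% for Cxcl10, shared with Art3 (at most 1.66 TPM in any library), and under 1% for Cxcl1, Cxcl5 and Cxcl9.

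To determine which of these levels differed when IKKβ was deleted, ΔMye PMs were compared with Tat PMs. Ikbkb, which encodes IKKβ, was 12.8 to 19.9 TPM in ΔMye PMs and 21.6 to 25.4 TPM in Tat PMs, so its transcripts were lower but still present. Each class held a ligand that was lower in ΔMye PMs and a ligand that was not. Cxcl10, Cxcl2 and Cxcl5 were lower in ΔMye PMs, at 33.5%, 47.6% and 63.5% of the Tat mean, whereas Cxcl9 and Cxcl16 were higher, at 170% and 135%. Cxcl3 (98.8%) and Cxcl1 (111%) did not pass the test in either direction. By the adjusted p alone, 3 ligands were lower (background 8.87% of tested genes) and 2 higher (background 38.8%). The ΔMye libraries lay wholly below those of Tat PMs for these 3 ligands, as for 8.01% of tested genes, and wholly above for these 2, as for 28.6%. None passed both thresholds: 0 of 7 were called lower, against 0.316% of tested genes, and 0 of 7 higher, against 0.44%. At an unadjusted p under 0.05, 5 of the 7 passed in limma and 6 in exact two-sided permutation tests. The share of all tested genes at that looser threshold was not counted. At the adjusted p it was already 38.8% higher and 8.87% lower, so these 2 counts have no background to be read against. Here the median tested gene was higher in ΔMye PMs by 0.22 on the log2 scale, and after scaling (median 0.01) Cxcl10 was called lower, against 0.603% of tested genes.

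**Figure D3:**
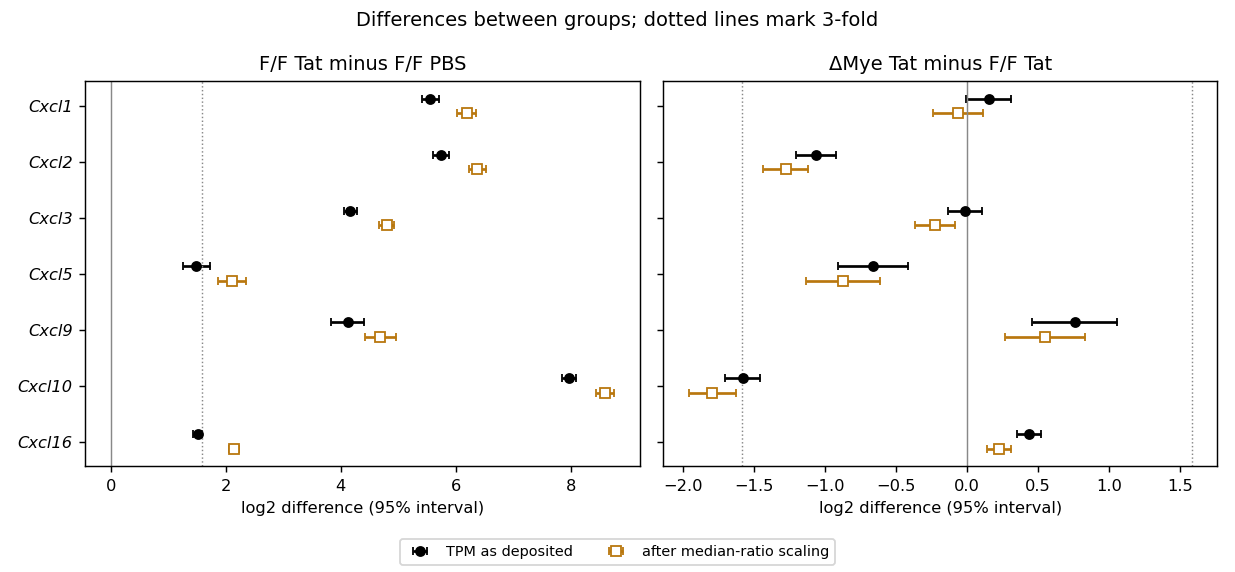
Log2 differences of the 7 ligands with 95% intervals from limma, for F/F Tat minus F/F PBS (left) and ΔMye Tat minus F/F Tat (right). Filled circles are TPM as deposited, open squares are values after median-ratio scaling, the solid line is 0 and dotted lines are 3-fold. On the right, Cxcl10 (-1.58) lies at the 3-fold line, Cxcl2 and Cxcl5 lie below 0, Cxcl9 and Cxcl16 above it, and the Cxcl1 point changes side with scaling.

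Within the neutrophil-attracting class, Cxcl2 was 4975, 5321, 4911, 4912 and 5067 TPM in the ΔMye libraries, all under the lowest Tat library (8497). It was lower by a log2 difference of -1.06 (SE 0.07, 95% interval -1.21 to -0.92, adjusted p = 1.79e-10, limma), or -1.28 after scaling. Even so it was 25.7-fold above control PMs and remained the most abundant of the 7 ligands. Cxcl5 was 8.69, 10.2, 6.68, 9.16 and 10.5 TPM, all under the lowest Tat library (12.1), with a log2 difference of -0.66 (SE 0.12, adjusted p = 9.41e-05, limma).

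Cxcl1 was 709.9, 759.0, 732.4, 684.6 and 738.6 TPM in ΔMye PMs. These libraries overlapped those of Tat PMs (up to 702.6), and the log2 difference of 0.15 (95% interval -0.0086 to 0.31) had an adjusted p of 0.0945 (limma) and an unadjusted exact two-sided permutation p of 0.0152. After scaling it was -0.061 (adjusted p = 0.582, limma), so the direction depended on the scaling. Cxcl3 was 2681, 2763, 2610, 2553 and 2754 TPM, inside the range of Tat PMs (2317 to 2926), with a log2 difference of -0.014 (95% interval -0.13 to 0.11, adjusted p = 0.837, limma). After scaling Cxcl3 differed by -0.23 and passed the adjusted p (0.00967, limma), and with quantile normalization it differed by 0.12. On the deposited scale the intervals reached no farther than 0.31 for Cxcl1 and -0.13 for Cxcl3, while the interval of Cxcl2 lay below -0.92. After scaling the intervals were -0.24 to 0.12 for Cxcl1, -0.37 to -0.086 for Cxcl3 and -1.43 to -1.12 for Cxcl2.

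The interferon-inducible ligands moved in opposite directions. Cxcl10 was 1672, 1687, 1864, 1841 and 1925 TPM in ΔMye PMs, all far under the lowest Tat library (5165). The log2 difference was -1.58 (SE 0.06, 95% interval -1.70 to -1.46, adjusted p = 9.22e-14, limma), just short of 3-fold, and -1.79 after scaling. It passed 3-fold when Tat library 7 or ΔMye library 21, 22 or 23 was left out (up to -1.60). Cxcl9, its neighbour on the chromosome, was 19.5, 21.9, 18.9, 17.9 and 20.1 TPM, all above the highest Tat library (12.7). Its log2 difference was 0.76 (SE 0.14, 95% interval 0.46 to 1.06, adjusted p = 1.76e-04, limma). Scaling brought it to 0.55 (adjusted p = 0.00240, limma). The fit uses a common spread over the 3 groups, and the control values of Cxcl9 were under 1 TPM. Against control PMs, Cxcl10 in ΔMye PMs was still 83.9-fold higher and Cxcl9 29.5-fold higher.

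Cxcl16 was 226, 227, 213, 233 and 229 TPM in ΔMye PMs, all above the highest Tat library (172). The log2 difference was 0.44 (SE 0.04, adjusted p = 5.10e-08, limma). Scaling brought it to 0.22 (adjusted p = 1.78e-04). Zmynd15 was 28.2 to 36.1 TPM in ΔMye PMs, against 25.1 to 28.1 TPM in Tat PMs.

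When ΔMye PMs were set beside control PMs, a contrast in which genotype and treatment differ together and which shares its libraries with the other comparisons, 6 of the 7 ligands were called higher (background 4.38%). The exception was Cxcl5, at 1.78-fold (adjusted p = 2.37e-06, limma). The log2 differences were 5.71 for Cxcl1, 4.68 for Cxcl2, 4.15 for Cxcl3, 4.88 for Cxcl9, 6.39 for Cxcl10 and 1.95 for Cxcl16.

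As classes, the neutrophil-attracting ligands had a median log2 difference of 4.87 with Tat and the interferon-inducible pair 6.05, where the median of all tested genes was -0.65. In ΔMye PMs against Tat PMs the medians were -0.34 and -0.41, where that of all tested genes was 0.22. The range within each class, from -1.06 to 0.15 and from -1.58 to 0.76, was wider than the gap between the class medians. The sum over a class follows its most abundant members. The neutrophil-attracting sum was 366 ± 26.4 TPM in control PMs, 13949 ± 1367 TPM in Tat PMs and 8444 ± 275 TPM in ΔMye PMs. The interferon-inducible sum, nearly all of it Cxcl10, was 22 ± 2.08, 5380 ± 179 and 1818 ± 112 TPM. Together the 7 ligands made up 0.0500% of the listed TPM in control PMs, 2.16% in Tat PMs and 1.17% in ΔMye PMs.

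The order of levels also changed. In control PMs it was Cxcl2, Cxcl3, Cxcl16, Cxcl10, Cxcl1, Cxcl5 and Cxcl9, with no overlap between neighbours. In Tat PMs Cxcl10 stood behind Cxcl2 and ahead of Cxcl3, Cxcl1 and Cxcl16, and the last neighbours, Cxcl5 and Cxcl9, overlapped. In ΔMye PMs Cxcl3 stood ahead of Cxcl10, and Cxcl9 stood ahead of Cxcl5, again with no overlap between neighbours.

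Ratios of members within a library do not depend on how libraries are scaled. Cxcl2 was 11.4 to 17.2 times Cxcl1 in control libraries and 15.2 to 16.7 times in Tat libraries, but 6.71 to 7.17 times in ΔMye libraries, which did not overlap the others. The Tat ratios thus lay inside the control range and the ΔMye ratios below both. Cxcl3 followed another course: Cxcl2 was 1.16 to 1.46 times Cxcl3 in control PMs, 3.67 to 4.05 times in Tat PMs and 1.84 to 1.93 times in ΔMye PMs. Cxcl1 over Cxcl3 averaged -3.44 on the log2 scale in control PMs, -2.05 in Tat PMs and -1.88 in ΔMye PMs. For the interferon-inducible pair, Cxcl10 was 423 to 525 times Cxcl9 in Tat PMs and 77.0 to 102.8 times in ΔMye PMs, with 23.3 to 75.3 times in control PMs. Cxcl2 over Cxcl10 averaged 3.20, 0.97 and 1.49 on the log2 scale in the 3 groups, so these 2 ligands were closest to each other in Tat PMs.

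**Figure D4:**
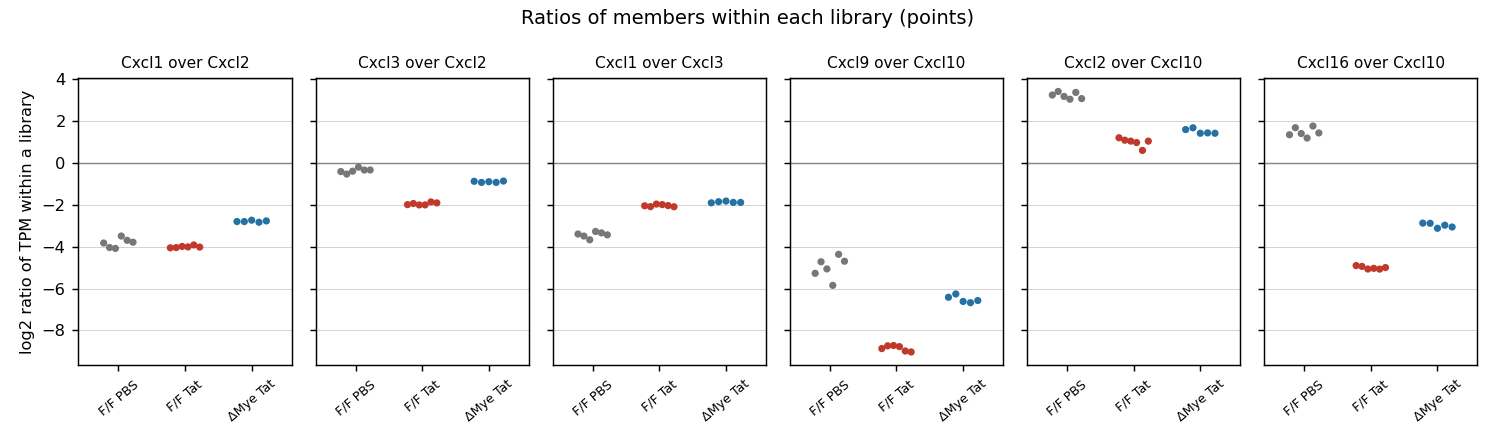
Log2 ratio of TPM between pairs of ligands within each library (points), by group. The line marks a ratio of 1. For Cxcl1 over Cxcl2 the F/F Tat points lie with those of F/F PBS and the ΔMye Tat points above, while Cxcl9 over Cxcl10 is lowest in F/F Tat, where it averaged -8.85.

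Library 11 of Tat PMs was the lowest of its group for Cxcl1 (559.4 TPM), Cxcl2 (8497 TPM), Cxcl3 (2317 TPM) and Cxcl5 (12.1 TPM), and also for Tnf, Il1a, Il1b, Il17a and Il17f, and the highest for Cxcl10 (5687 TPM). Without it the log2 difference between ΔMye PMs and Tat PMs was 0.11 for Cxcl1, -1.13 for Cxcl2, -0.058 for Cxcl3 and -1.56 for Cxcl10, and no ligand crossed the adjusted p threshold. Within groups, libraries correlated at Pearson's r of 0.984 to 0.990 across tested genes, which are not independent replicates, and no libraries were identical.

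The cytokines that induce these ligands were examined as a list of 7, of which 6 were tested. All 6 were called higher with Tat (background 5.21%). Tnf, Il1a and Il1b, which drive NF-κB, rose by 3.84, 6.30 and 7.36 on the log2 scale. Il17a, which stabilises Cxcl1 and Cxcl2 transcripts in many cells, was listed at 0 in each control library and reached 16.4 to 24.9 TPM in Tat PMs. Ifng, an inducer of Cxcl9, was 0.169 to 1.52 TPM in control PMs and 50.7 to 60.0 TPM in Tat PMs. In ΔMye PMs, 2 of the 6 were called lower (background 0.316%). Il17a was 0.0765 to 0.875 TPM and Il17f at most 0.20 TPM, against 6.52 to 12.0 TPM in Tat PMs (log2 difference -5.83, adjusted p = 1.92e-11, limma). By the adjusted p alone Il1a (-0.56) and Il1b (-0.17) were lower and Tnf higher (0.31, but 0.10 and short of the threshold after scaling). Ifng was 79.4 to 96.4 TPM in ΔMye PMs, without overlap with Tat PMs, but its adjusted p was 0.0733 (log2 difference 0.62, limma). That fit shares one spread over the 3 groups, and the control values of Ifng were near the floor. The p therefore does not measure the spread of the 2 groups compared, which were 86.5 ± 6.81 and 56.1 ± 3.90 TPM (SD). After scaling the Ifng difference was 0.41 (adjusted p = 0.253, limma). The medians over the 6 were 6.20 with Tat and -0.37 between genotypes. Ifnb1 did not pass the filter on low values, with means of 0.470 TPM in Tat PMs and 0.103 TPM in ΔMye PMs. The 7 markers of T cells, which are known to make Ifng and Il17a and to carry Cxcr6, summed to 7.18 to 13.8, 6.58 to 7.99 and 13.1 to 15.0 TPM in the 3 groups. None was at 0 throughout. With Tat, 1 of the 6 tested was higher and 5 lower by the adjusted p (background 17% and 67.6%). In ΔMye PMs 4 were higher and 0 lower (background 38.8% and 8.87%). The part of T cells in these cytokine levels was not tested.

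**Figure D5:**
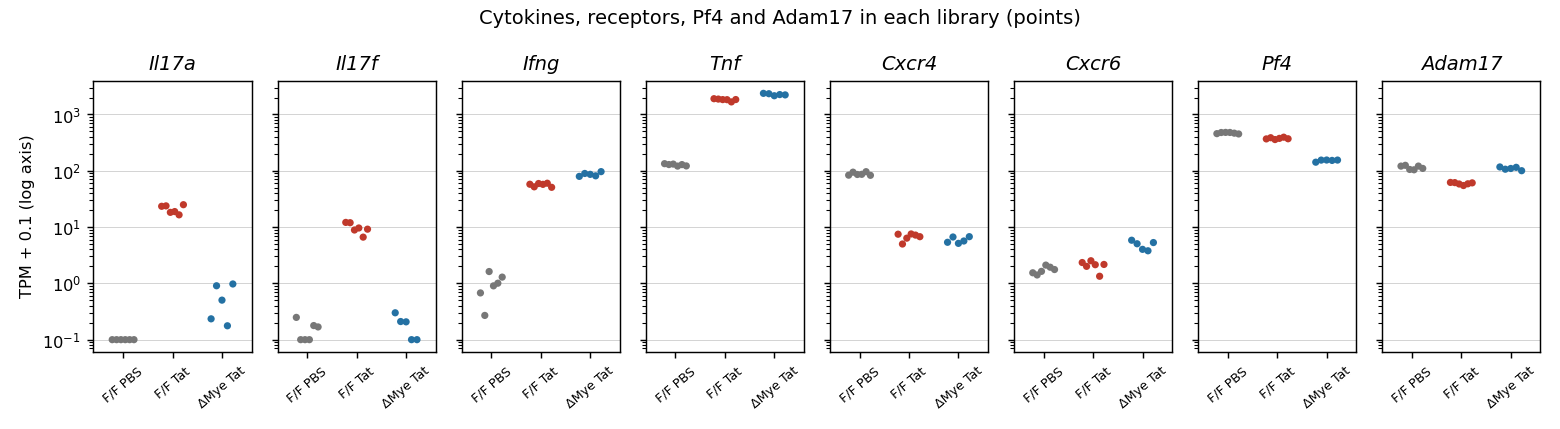
TPM + 0.1 in each library (points, log axis shared by all panels) for inducing cytokines, CXC receptors, the CXC ligand Pf4 and the sheddase Adam17. Il17a and Il17f are high in F/F Tat alone, Ifng and Tnf are high in both Tat groups, Cxcr4 is high in F/F PBS alone, and Cxcr6 is highest in ΔMye Tat (mean 4.7 TPM).

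Of 8 CXC receptor genes, 3 passed the filter on low values, with a median log2 difference of 0.25 with Tat and -0.18 between genotypes. Of these 3, 1 was called lower with Tat (background 19.4%). Cxcr2, the receptor of the neutrophil-attracting ligands, and Cxcr3, that of the interferon-inducible ones, had group means under 1 TPM. Cxcr4, the Cxcl12 receptor, fell from 82.9 to 96.2 TPM in control PMs to 4.90 to 7.44 TPM in Tat PMs (log2 difference -3.73, adjusted p = 5.16e-18, limma), and was 5.03 to 6.65 TPM in ΔMye PMs. Cxcr6, the Cxcl16 receptor, was 1.24 to 2.42 TPM in Tat PMs and 3.69 to 5.74 TPM in ΔMye PMs (log2 difference 1.21, adjusted p = 4.13e-06, limma). Cxcr6 and Cxcl16 were thus both higher in ΔMye PMs by the adjusted p, as were 38.8% of tested genes. A link between the 2 was not tested. Cxcr5, the Cxcl13 receptor, rose with Tat by 1.49 (adjusted p = 5.76e-06) and did not pass the test between genotypes (-0.66, adjusted p = 0.0244). After scaling Cxcr5 was called higher with Tat (2.09) and passed the adjusted p between genotypes (-0.87, adjusted p = 0.00489, limma).

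The other CXC ligands, a list of 7 of which 3 were tested, were all lower with Tat by the adjusted p on the deposited scale (median -1.15, background 67.6% by the adjusted p and 19.4% by both thresholds). In ΔMye PMs, 2 of the 3 were lower by the adjusted p (median -0.51, background 8.87%). Pf4, which lies between Cxcl5 and Cxcl3 (chr5:90772435-90773383), was 450.4 to 479.8 TPM in control PMs, 358 to 395 TPM in Tat PMs and 142 to 155 TPM in ΔMye PMs. Its log2 difference with Tat was -0.32, but 0.31 after scaling, and between genotypes it was -1.31 (adjusted p = 1.63e-16, limma), or -1.52 after scaling. Cxcl13, a B cell attractant, fell by 1.15 on the log2 scale with Tat and was lower by a further -0.51 in ΔMye PMs. Cxcl14 was called lower with Tat, from 2.41 to 0.689 TPM on average, but its scaled difference of -1.10 was short of 3-fold.

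In the NF-κB list, 6 of 14 genes were called higher with Tat (background 5.21%): Nfkb1, Nfkb2, Nfkbia, Nfkbib, Nfkbiz and Tnfaip3. They encode 2 of its subunits and 4 of its inhibitors or regulators. In ΔMye PMs none was called (0 by both thresholds, background 0.316% lower and 0.44% higher). By the adjusted p alone 6 were lower and 2 higher (background 8.87% and 38.8%), or 9 and 1 after scaling (background 18.8% and 16.4%). Those lower on the deposited scale were Ikbkb itself and Nfkb2, Nfkbib, Nfkbiz, Bcl3 and Tnfaip3, with log2 differences of -0.52 to -0.25, beside -1.58 for Cxcl10, -1.06 for Cxcl2 and -0.66 for Cxcl5. The list's medians were 0.96 with Tat and -0.10 between genotypes, where all tested genes had -0.65 and 0.22.

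In the interferon signalling list, Jak2, Irf1 and Irf7 were called higher with Tat (background 5.21%), by 2.30, 2.26 and 2.28 on the log2 scale. Ifngr1, a chain of the interferon-γ receptor, was called lower (-1.92, or -1.29 and short of 3-fold after scaling, background 19.4%). In ΔMye PMs, by the adjusted p alone, 2 of 14 were lower and 7 higher (background 8.87% and 38.8%). The medians of the list were 0.30 with Tat and 0.16 between genotypes. The lower ones were Irf7 (-0.63) and Stat2 (-0.56), which act in the type I interferon response. Irf8 (0.77), Ifngr1 (0.76) and Irf1 (0.35) were among the higher ones, though after scaling 3 were higher and 6 lower (background 16.4% and 18.8%), and Irf1 (0.14) no longer passed.

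Among 7 genes for the decay or stabilisation of chemokine transcripts, 3 were called higher with Tat and 1, Zfp36l2, lower (median 0.69, background 5.21% and 19.4%). By the adjusted p alone 3 were lower and 1 higher in ΔMye PMs (median -0.06, background 8.87% and 38.8%). Zfp36 and Zc3h12a, which encode proteins that degrade them, rose with Tat (1.94 and 2.70) and were lower in ΔMye PMs (-0.49 and -0.24). Zfp36l2 went the other way, from 115 TPM in control PMs to 25 in Tat PMs and 56.8 in ΔMye PMs, and its difference with Tat of -2.20 was -1.57 and short of 3-fold after scaling. Il17ra, the receptor for Il17a, was called higher with Tat (1.95). The sheddases of Cxcl16 both fell with Tat (background 67.6% lower by the adjusted p) and were higher in ΔMye PMs. Adam17 averaged 114, 59.3 and 110 TPM in the 3 groups, and Adam10 65.7, 17.4 and 26.8 TPM. The log2 difference of Adam17 with Tat was -0.94, but -0.31 after scaling. Of that list of 5, 4 were tested, and 1 (Adam10) was called lower with Tat (-1.91, or -1.28 and short of 3-fold after scaling, background 19.4%). Adam10, Adam17 and Mmp12 were higher in ΔMye PMs by the adjusted p alone (background 38.8%). The list's medians were -0.93 and 0.75.

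The genes whose centred profile over the 17 libraries was nearest to each ligand were found by the root mean square (RMS) log2 difference. Nearest to Cxcl2 were the chemokines Ccl3 (RMS 0.120) and Ccl7 (0.156) and the cholesterol 25-hydroxylase Ch25h (0.232). Nearest to Cxcl1 were Shisa3 (0.199), AA467197 (0.234) and Il12b (0.264), and nearest to Cxcl3 were Calhm6 (0.154), Tarm1 (0.154) and Tnf (0.178). Cxcl2 itself was 0.532 from Cxcl1, farther than either's nearest genes. Nearest to Cxcl10 were the cytokine genes Il6 (0.300), Il27 (0.356) and Csf2 (0.363), and nearest to Cxcl9 were Lad1 (0.279), Vcam1 (0.281) and Mmp13 (0.282). Cxcl16 lay closest to Itga5 (0.0910), Cdc42ep2 (0.113) and the MHC class I gene H2-Q7 (0.127), and Cxcl5 to Prpf38a (0.179), Arl4a (0.197) and Rnf135 (0.198). These distances describe the 3 groups and carry no test.

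All 7 macrophage markers were detected, and their summed level was 25603 to 26604 TPM in control PMs, 9432 to 10073 TPM in Tat PMs and 7004 to 7323 TPM in ΔMye PMs. Most of it was Lyz2, the gene that carries the Cre (21615 to 22806, 6823 to 7246 and 4154 to 4617 TPM). The sum therefore follows Lyz2. By the adjusted p alone, 3 of the 7 markers were higher and 2, Lyz2 among them, lower in ΔMye PMs (background 38.8% and 8.87%). With Tat, 2 were higher and 5 lower (background 17% and 67.6%). Markers of other cells were also present at low levels. The 5 NK cell markers summed to 5.13 to 8.33 TPM in Tat PMs and 6.45 to 9.17 TPM in ΔMye PMs. The 8 neutrophil markers summed to 66.6 to 77.9 TPM in Tat PMs and 87.5 to 106.1 TPM in ΔMye PMs. S100a8 made up 61.7 to 75.8 and 85.0 to 100.7 TPM of these sums. Of the 4 tested, 1 was higher and 0 lower in ΔMye PMs by the adjusted p (background 38.8% and 8.87%). S100a9, Camp and Retnlg overlapped between Tat PMs and ΔMye PMs, and Retnlg was highest in control PMs (3.28 to 7.50 TPM). Elane was at 0 throughout and Mpo in every control library. In the other groups Mpo, and in each group Ly6g, was at 0 in some libraries. The 5 fibroblast markers summed to 27.7 to 32.2 and 16 to 20.6 TPM, with 3 of 5 lower in ΔMye PMs (background 8.87%), and the 7 mesothelial markers to 2.39 to 3.85 and 1.52 to 2.07 TPM. Summed endothelial markers (8.69 to 13.1 and 4.47 to 8.41 TPM) and mast cell markers (32.3 to 44.0 and 24.9 to 31.6 TPM) were also lower in ΔMye PMs without overlap (the endothelial gene Tek was at 0 throughout), whereas B cell markers overlapped (11.3 to 15.0 and 8.33 to 13 TPM). The part of these cells in the ligand differences was not tested.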

How the data were processed

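RNA-Seq values of 17 libraries were used. The authors ran Salmon with Ensembl transcripts of GRCm38 (mm10 per the labels), and the deposited values are TPM by gene symbol, with no normalization between libraries stated. TPM hold no read counts, so depth and counting error are unknown. Of 21683 rows, 2 repeat a symbol. A gene was tested if it reached 1 TPM in 5 or more libraries (10451 genes). Tests used limma 3.58.1 (R 4.3.3; lmFit, contrasts.fit, eBayes with trend) on log2(TPM + 0.1), all 3 groups fitted together (14 residual degrees of freedom), with Benjamini-Hochberg adjustment. Calls needed an adjusted p under 0.01 and a fold over 3, or the adjusted p alone where stated. The authors' edgeR test needs counts and was not repeated. Groups followed the sample labels; one item of the genotype shared by all groups is not reported here. The fit was tested on simulated data. Exact permutation tests were two-sided and unadjusted.

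Other settings tried were a pseudocount of 0.5 or 1, leaving out the filter or raising it to 5 TPM, median-ratio scaling, quantile normalization, fitting 2 groups at a time, robust eBayes combined with array weights, and dropping each library in turn. The genes, lists and markers were chosen with earlier results of these data known. Named genes were the members, list genes called in either comparison or counted in groups of 5 or fewer, Ikbkb as a label check, and the 3 nearest profiles per member. Other list genes were named after their values were seen. Figures used Python 3.11.15 and matplotlib 3.10.9.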

Additional observations from a re-analysis of the deposited data

How the results depend on the processing

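The Tat rise of all 7 ligands kept its direction and passed the adjusted p under every alternative. Between ΔMye Tat and F/F Tat, Cxcl2, Cxcl5, Cxcl9, Cxcl10 and Cxcl16 did so too. Ligands called lower there numbered 0, but 1, Cxcl10, with median-ratio scaling and with robust eBayes, and 0 to 1 with each library left out (1 without F/F Tat library 7 or ΔMye Tat library 21, 22 or 23). Cxcl1 turned to -0.061 with scaling. Cxcl3 turned to 0.12 with quantile normalization and ranged from -0.058 to 0.0090 with each library left out (0.0090 and 0.0027 without F/F Tat library 7 or 8, 0.0019 without ΔMye Tat library 22), and was -0.23, past the adjusted p, with scaling. The cause was not tested. Genes called with Tat were 545 higher and 2031 lower, but 889 and 1020 with scaling and 835 and 894 with quantile normalization; the lower count was 1197 at pseudocount 1 and 1281 with the 5 TPM filter. Between genotypes 46 were higher and 33 lower, against 27 and 63 with scaling; the higher count was 15 and 10 at pseudocounts 0.5 and 1, 18 with the 5 TPM filter and 24 with quantile normalization, and the lower count 20 at pseudocount 1. No paired analysis was possible because the groups share no library numbers. Depth is unknown, so the counting error of low values, such as Cxcl9 in F/F PBS, cannot be given.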
